A study of Macaca mulatta with 24 samples.

Results

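RBP4 and PNMA5 are 2 of the 14132 genes named on Affymetrix Rhesus arrays of monkey neocortex, and they were taken by symbol: every probe set whose single gene symbol was RBP4 or PNMA5 was described on all 24 arrays. There were 3 such probe sets among 52766, and all 3 passed the filter on dim signal (a mean log2 intensity of at least 5.62). RBP4 had 2 of them, MmugDNA.27239.1.S1_s_at, here the first set, and MmugDNA.27239.1.S1_at, the second. The suffix _s_at marks a set whose probes can also match related transcripts. Both RBP4 sets share the rest of the name and were read from the same RNA, so they are not independent readings. PNMA5 had 1, MmunewRS.100.1.S1_at. RefSeq's rhesus gene table lists RBP4 on chromosome 9 and PNMA5 on chromosome X, both as protein-coding genes.

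Tissue came from 4 cortical areas of untreated rhesus monkeys (Macaca mulatta) kept in group cages: the forelimb part of primary motor cortex (M1), dorsal premotor cortex (PMd), ventral premotor cortex (PMv) and prefrontal area 46 (A46), the cortex of the principal sulcus. Each area was dissected by sulcal landmarks from the left and right hemispheres of 3 animals, which gave 6 arrays per area. Animal 1 was a male of 2.7 years, animal 2 a male of 2.6 years and animal 3 a female of 2.7 years. The pieces were whole tissue with all its cell types, so a lower share of cells that make a transcript and less of it per cell cannot be told apart. Because all areas came from the same 3 animals, the p-values for areas set a difference against its variation from animal to animal, within these animals only.

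RBP4 encodes the plasma protein that carries retinol, the alcohol form of vitamin A, out of the liver. In blood it binds transthyretin (TTR), and cells can take up its retinol through the membrane receptor STRA6. Inside cells retinol is oxidised to retinoic acid, which acts through the nuclear receptors RAR and RXR. PNMA5 belongs to the paraneoplastic Ma antigen (PNMA) family, genes that derive from the gag gene of an ancient retrotransposon and are often expressed in brain. In primate neocortex both genes are known for higher expression in association areas, which integrate inputs, than in primary sensory and motor areas. Among these areas A46 is association cortex and M1 a primary area, with the premotor areas usually placed between them.

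The arrays were closely alike, with correlations of 0.978 to 0.997 between any pair and array medians between 47.9 and 51.7 intensity units. The PMv left arrays of animals 1 and 2 stood somewhat apart. Their mean correlation with the others was 0.984 and 0.987, against at least 0.991 for the other 22, and their log2 values had an SD of 1.79 and 1.83, against 1.87 to 1.95. Results that rest on PMv are therefore also given without them. RNA integrity was read from actin and GAPDH, as log2 of the 3′ over the 5′ signal. For actin this was 0.81 to 1.07 in M1, 0.77 to 1.16 in PMd, 0.88 to 1.32 in PMv and 0.82 to 1.23 in A46, and for GAPDH 0.86 to 1.09 in M1, 0.75 to 1.17 in PMd, 0.81 to 1.01 in PMv and 0.78 to 0.93 in A46. The areas overlapped, but M1 was below A46 in 5 of 6 animal-hemisphere pairs for actin and above it in 5 of 6 for GAPDH. The part of RNA integrity in the area differences was not tested.

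RBP4 was lowest in M1 and highest in A46. By the first RBP4 set, the left and right M1 arrays read 283.0 and 267.2 intensity units in animal 1, 214.6 and 282.6 in animal 2, and 198.2 and 244.4 in animal 3. The 6 PMd arrays read 338.1 to 423.2 (median 382) and the 6 PMv arrays 337.0 to 422.3 (median 360). The A46 arrays read 420.2 and 375.6 in animal 1, 365.8 and 415.1 in animal 2, and 458.1 and 424.2 in animal 3. All 6 M1 arrays thus lay below all 18 arrays of the other areas, which held for 0.178% of the tested probe sets. The premotor and A46 arrays overlapped, with 2 of 6 PMd arrays and 4 of 6 PMv arrays below every A46 array.

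The second RBP4 set gave the same lowest and highest areas. Its M1 arrays read 180.1 and 145.8 (left and right) in animal 1, 118.5 and 152.8 in animal 2, and 129.5 and 167.3 in animal 3. The PMd arrays read 195.4 to 232.3 (median 215), a narrow range. The PMv arrays read 183.0 and 247.5 in animal 1, 161.3 and 228.5 in animal 2, and 267.2 and 326.2 in animal 3, the widest spread of any area. The A46 arrays read 311.1 and 286.6 in animal 1, 226.7 and 285.9 in animal 2, and 269.1 and 263.4 in animal 3. All 6 M1 arrays were below every A46 array and below every PMd array, and 4 of 6 were below every PMv array. The PMv array that overlapped M1 was the left one of animal 2 (161.3). The left one of animal 1 (183.0) lay just above the highest M1 value (180.1).

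PNMA5 was also lowest in M1, while PMd, PMv and A46 lay close together. Its M1 arrays read 170.0 and 158.8 (left and right) in animal 1, 128.1 and 136.6 in animal 2, and 173.7 and 181.3 in animal 3. The PMd arrays read 194.5 to 238.4 (median 210) and the PMv arrays 185.2 to 268.1 (median 197). The A46 arrays read 198.0 and 194.9 in animal 1, 203.4 and 215.3 in animal 2, and 259.5 and 252.0 in animal 3. As for the first RBP4 set, all 6 M1 arrays lay below all 18 others. Only 1 of 6 PMd arrays and 1 of 6 PMv arrays were below every A46 array.

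**Figure D1:**
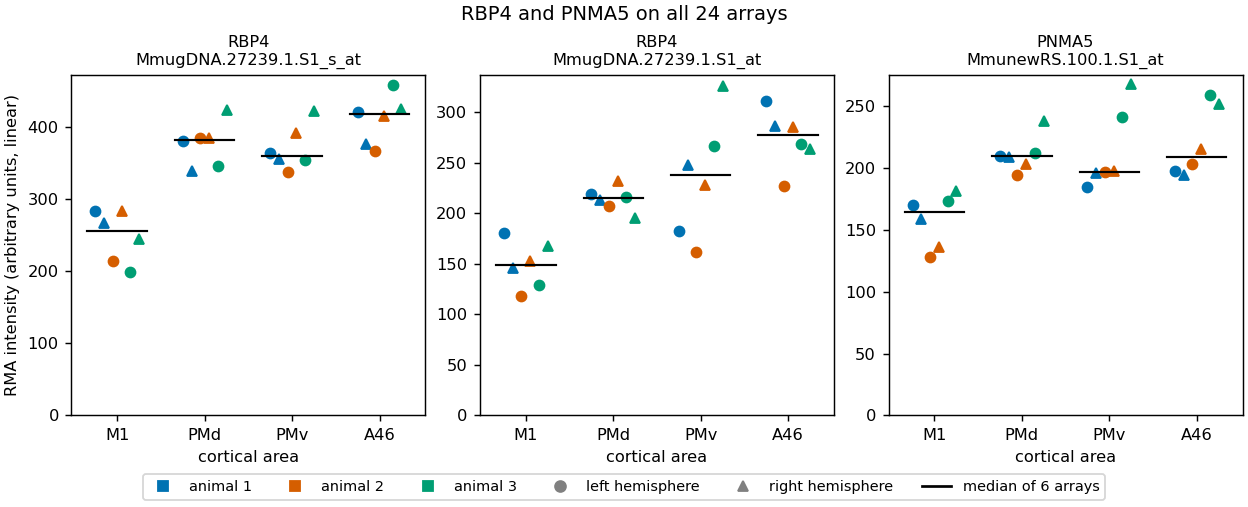
RMA intensity (linear, arbitrary units) of the RBP4 and PNMA5 probe sets on each of the 24 arrays, by area from M1 to A46, with colours for animals, circles for left and triangles for right hemispheres, and a line at the median of 6 arrays. M1 is lowest throughout (first RBP4 set 198.2 to 283.0, PNMA5 128.1 to 181.3), and for PNMA5 the arrays of animal 3 are the highest of each area.

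Within each animal and hemisphere the position of M1 did not vary. M1 was the lowest of the 4 areas in 6 of 6 animal-hemisphere pairs for each of the 3 probe sets, a pattern found in 1.1% of all tested probe sets. The top of the order was less fixed. A46 was the highest area in 5 of 6 pairs for both RBP4 sets but in 3 of 6 for PNMA5.

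In M1 minus A46, the comparison of a primary with an association area, both genes were lower in M1. The first RBP4 set had mean log2 levels of 7.94 ± 0.16 (M1) and 8.67 ± 0.10 (A46), with the SD over 3 animals, a difference of -0.73 (SE 0.09) or 0.602 times the A46 level (limma adjusted p = 0.000129). The second RBP4 set had 7.20 ± 0.13 in M1 and 8.09 ± 0.12 in A46, a difference of -0.89 (SE 0.12, adjusted p = 0.000323). PNMA5 had 7.29 ± 0.22 in M1 and 7.78 ± 0.20 in A46, a difference of -0.48 (SE 0.08) or 0.716 times the A46 level (adjusted p = 0.00226). All 3 probe sets passed the threshold of 0.05, where 5.36% of tested probe sets were called lower. All 6 M1 arrays were below all 6 A46 arrays for each, as they were for 3.89% of tested probe sets. Counted from the lowest difference, the second RBP4 set ranked 28, the first 67 and PNMA5 290 of 26383. The call for PNMA5 was lost without animal 2 (difference -0.39, adjusted p = 0.172), and both RBP4 sets passed without any 1 animal.

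The animals differed in how large the step was. For the first RBP4 set M1 minus A46 was -0.53 in animal 1, -0.66 in animal 2 and -1.002 in animal 3. For the second it was -0.88, -0.92 and -0.86, nearly equal, and for PNMA5 -0.26, -0.66 and -0.53. Each value was negative.

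Both genes were lower in M1 than in the premotor areas as well. For M1 minus PMv the differences were -0.59 (SE 0.09, adjusted p = 0.00643) for the first RBP4 set, -0.64 (SE 0.12, adjusted p = 0.0187) for the second and -0.44 (SE 0.08, adjusted p = 0.023) for PNMA5. All 3 passed, against 0.466% of tested probe sets called lower. For M1 minus PMd, where 0.159% were called lower, 1 of 3 passed. The first RBP4 set was lower in M1 (-0.61, SE 0.09, adjusted p = 0.0188), while the second (-0.54, SE 0.12, adjusted p = 0.0778) and PNMA5 (-0.43, SE 0.08, adjusted p = 0.0571) had negative values that did not pass. These differences had ranks of 14, 25 and 54 from the lowest among 26383 in M1 minus PMd, and of 12, 8 and 52 in M1 minus PMv.

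These premotor calls changed when single animals were left out, as did the calls over all probe sets. Without animal 2, 0 of 26383 tested probe sets were called in M1 minus PMd and 21 in M1 minus PMv. With all 3 animals 87 and 494 were called. In each animal all 3 probe sets were lower in M1 than in both premotor areas. For the first RBP4 set M1 minus PMd was -0.38, -0.64 and -0.80 in animals 1, 2 and 3. Without animal 2 the adjusted p for M1 minus PMv was 0.216 for the first RBP4 set, 0.233 for the second and 0.629 for PNMA5, and that for M1 minus PMd was 0.601 for the first RBP4 set. The second RBP4 set also missed the threshold for M1 minus PMv without animal 1 (adjusted p = 0.0584). Without animal 3, M1 minus PMd passed for the second RBP4 set (adjusted p = 0.0128) and for PNMA5 (0.0372). With the PMv left arrays of animals 1 and 2 left out, all 3 probe sets passed in both comparisons, with adjusted p between 0.00525 and 0.0197 for M1 minus PMd and between 0.00047 and 0.00781 for M1 minus PMv.

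Between the premotor areas and A46 the differences were smaller and none passed. For PMd minus A46, where 0.561% of tested probe sets were called lower, the values were -0.12 (95% interval -0.31 to 0.06, adjusted p = 0.537) for the first RBP4 set, -0.35 (-0.60 to -0.10, adjusted p = 0.159) for the second and -0.05 (-0.24 to 0.13, adjusted p = 0.828) for PNMA5. For PMv minus A46, with 0.599% called lower, they were -0.15 (-0.33 to 0.04, adjusted p = 0.376), -0.25 (-0.50 to 0.00, adjusted p = 0.273) and -0.05 (-0.23 to 0.14, adjusted p = 0.811) in the same order. The second RBP4 set passed for PMd minus A46 without animal 3 (-0.34, adjusted p = 0.0201) or without the 2 PMv left arrays (-0.35, adjusted p = 0.0352), and for PMv minus A46 without animal 3 (-0.45, adjusted p = 0.00217).

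PMd and PMv could not be ordered. PMd minus PMv was 0.02 (95% interval -0.16 to 0.20, adjusted p = 0.976) for the first RBP4 set, -0.10 (-0.35 to 0.15, adjusted p = 0.898) for the second and -0.01 (-0.19 to 0.17, adjusted p = 0.991) for PNMA5. In this comparison 0.00758% of tested probe sets were called in either direction. By mean PMv was next above M1 for the first RBP4 set, and that step passed. For the second set and PNMA5 PMd was next, and that step did not pass. The premotor means of 8.55 ± 0.06 (PMd) and 8.53 ± 0.06 (PMv) for the first RBP4 set, 7.74 ± 0.05 and 7.84 ± 0.32 for the second, and 7.72 ± 0.09 and 7.73 ± 0.23 for PNMA5 did not differ beyond their spread.

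**Figure D2:**
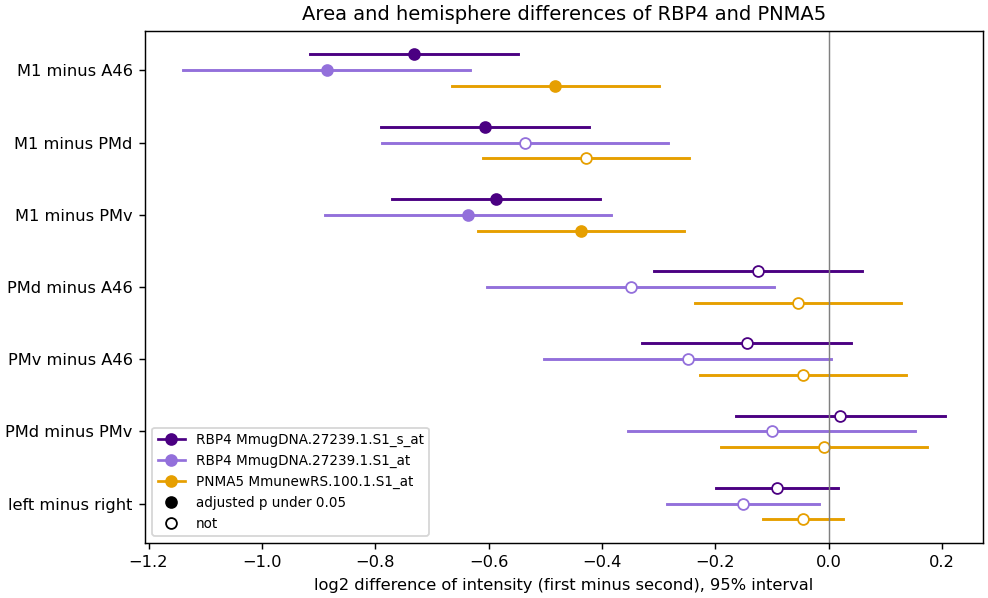
Log2 differences (first area or hemisphere minus second) with 95% intervals for the 3 probe sets. Filled points passed an adjusted p of 0.05 in limma and open points did not; the M1 minus A46 values of -0.73, -0.89 and -0.48 are filled, and every premotor minus A46, PMd minus PMv and left minus right value is open.

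Set against the mean of the other 3 areas together, M1 was lower, with differences of -0.64 (SE 0.07, adjusted p = 0.000223) for the first RBP4 set, -0.69 (SE 0.10, adjusted p = 0.000939) for the second and -0.45 (SE 0.07, adjusted p = 0.00171) for PNMA5. All 3 passed, against 2.07% of tested probe sets called lower. Without animal 2 the second RBP4 set (adjusted p = 0.0519) and PNMA5 (0.177) missed the threshold. An exact permutation of areas within animals, two-sided, gave p = 0.0156 for each, the smallest that its 64 arrangements allow (0.0469 after Benjamini-Hochberg adjustment over 12 such tests). The F test for any area difference was passed by all 3 probe sets (limma adjusted p = 0.000743, 0.00248 and 0.00844 in the order above), as it was by 6.53% of tested probe sets. It was lost by all 3 without animal 2 (adjusted p = 0.102, 0.127 and 0.601). The exact permutation test for any area difference gave p = 0.00694, 0.0208 and 0.0451, or 0.0469, 0.05 and 0.0774 after adjustment.

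The premotor areas lay nearer to A46 than to M1. The mean of both premotor areas was above the midpoint of M1 and A46 by 0.23 (SE 0.06) for the first RBP4 set, 0.14 (SE 0.08) for the second and 0.19 (SE 0.06) for PNMA5. None passed over all probe sets (adjusted p = 0.726, 0.73 and 0.726), a comparison in which 0.0265% were called above the midpoint. The first RBP4 set passed without animal 3 (0.19, adjusted p = 0.0476). This contrast was chosen after the area means had been seen.

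Area accounted for most of the variance of RBP4, and animal for more of that of PNMA5. Over the 12 means, area took 92.1% and animal 0.125% of the variance for the first RBP4 set, 81.8% and 5.04% for the second, and 60.9% and 29.5% for PNMA5. Over all tested probe sets the medians were 25.9% and 29.4%.

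The share of animal in PNMA5 came with higher values in animal 3. In each of the 4 areas both arrays of animal 3 were above all 4 arrays of animals 1 and 2. They read 173.7 and 181.3 against 128.1 to 170.0 in M1, 212.6 and 238.4 against 194.5 to 209.7 in PMd, 241.3 and 268.1 against 185.2 to 197.8 in PMv, and 259.5 and 252.0 against 194.9 to 215.3 in A46. The mean log2 difference over areas, animal 3 minus animals 1 and 2, was 0.28. Among tested probe sets 2.03% had both arrays of animal 3 above the others in all 4 areas. The RBP4 sets had this separation in 1 area each, A46 for the first and PMv for the second. Animal 3 was the female, and with 1 female no test is possible: sex and animal cannot be told apart.

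The area profiles of RBP4 and PNMA5 were alike. Across the 12 means, with each animal's mean removed, PNMA5 correlated with the first RBP4 set at r = 0.93 and with the second at 0.88, and the RBP4 sets with each other at 0.90. These are descriptions over 4 areas of the same 3 animals. The test of the difference itself used the first RBP4 set minus PNMA5, whose mean log2 value was 0.65 ± 0.30 in M1, 0.83 ± 0.10 in PMd, 0.80 ± 0.17 in PMv and 0.90 ± 0.12 in A46 (SD, n = 3 animals). An exact permutation test did not find that it varied over areas (p = 0.163, 0.196 adjusted). M1 minus the mean of the other areas, taken on RBP4 minus PNMA5, was -0.19 and did not pass after adjustment (exact permutation p = 0.0312, 0.0625 adjusted). With the second RBP4 set the corresponding p-values were 0.116 and 0.109 (both 0.155 adjusted), and the RBP4 sets against each other gave 0.528 and 0.75 (0.576 and 0.75 adjusted). With 3 animals these tests bound the difference only loosely.

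Left and right hemispheres were compared next. Left was below right in 7 of 12 animal-area pairs for each RBP4 set and in 8 of 12 for PNMA5. Left minus right was -0.09 (95% interval -0.20 to 0.02) for the first RBP4 set, -0.15 (-0.29 to -0.02) for the second and -0.05 (-0.12 to 0.02) for PNMA5, and none passed (limma adjusted p = 0.726, 0.603 and 0.792). In this comparison 0.0% of tested probe sets were called by limma, and 2022 had an unadjusted p under 0.05. The values of the second RBP4 set in PMv were the widest apart: 183.0, 161.3 and 267.2 on the left and 247.5, 228.5 and 326.2 on the right in animals 1, 2 and 3, a log2 difference of -0.41 (adjusted p = 0.118). Left was lower in 3 of 3 animals, but the left arrays of animals 1 and 2 are those that stood apart, and the hemisphere effect did not differ between areas past the threshold (adjusted p = 0.999 for each probe set).

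The genes whose profile was most like RBP4 were found by the same correlation over 12 means, ranked over 10042 genes. C1QL2, a secreted synaptic protein of the C1q family, CA11, a protein related to carbonic anhydrases, and MAPK3, the kinase ERK1, led with r = 0.97 each. KCNN3, a small-conductance calcium-activated potassium channel, followed with 0.95, then PPP1R16A, PLCD3, the actin-binding coronin CORO1A and PLAC9, each with r = 0.95. Of these 8 genes 7 were called lower in M1 than in A46, among them C1QL2 (-0.47, adjusted p = 0.00103) and PLAC9 (-0.53, adjusted p = 0.000971), and PPP1R16A was not (-0.18, adjusted p = 0.0756). The 4 most opposed genes were HS3ST2, a heparan sulfate sulfotransferase (r = -0.94), ABCD4 (-0.92), the synaptotagmin SYT6 (-0.91) and CLMN (-0.91), and all 4 were called higher in M1. Without animal 2 none of the 7 was called (adjusted p between 0.0692 and 0.364) and ABCD4 was lost (0.252). PLCD3 was also lost without animal 1 (0.182) and without animal 3 (0.098). Likeness and the area difference come from the same values, so these calls follow in part from the ranking.

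For PNMA5 the most alike genes were AP3B2, the neuronal subunit of an adaptor complex of vesicle sorting (r = 0.95), KCNN3 (0.94), ERICH3 (0.94), SMAD3, a transducer of TGF-beta signals (0.94), CA11 (0.93), SH2D5 (0.93), RBP4 (0.93) and the anion exchanger SLC4A3 (0.93). RBP4 was thus the 7th most alike gene to PNMA5, and PNMA5 the 15th to RBP4. KCNN3 and CA11 were the 2 genes among the 8 of both. Of the 8, 6 were called lower in M1 than in A46, and AP3B2 (-0.14, adjusted p = 0.112) and ERICH3 (-0.19, adjusted p = 0.0552) were not. The 4 most opposed were the glycine transporter SLC6A9 (r = -0.93), DHRS7 (-0.93), FANCE (-0.93) and NEURL4 (-0.92), of which 3 were called higher in M1 and SLC6A9 was not (0.28, adjusted p = 0.0526). Without animal 2 the only call left among the 8 was RBP4 itself, and none of the 4 opposed was left. Without animal 1 SMAD3 (0.0623) and SLC4A3 (0.137) were lost among the 8, and without animal 3 SLC4A3 (0.0568). Among the opposed genes FANCE was lost without animal 1 (0.0516) or animal 3 (0.0681), and NEURL4 without animal 1 (0.0812). The ranking depended on removing animal means: without this step 2 of the 8 genes most like RBP4 and 0 of the 8 most like PNMA5 were named again.

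**Figure D3:**
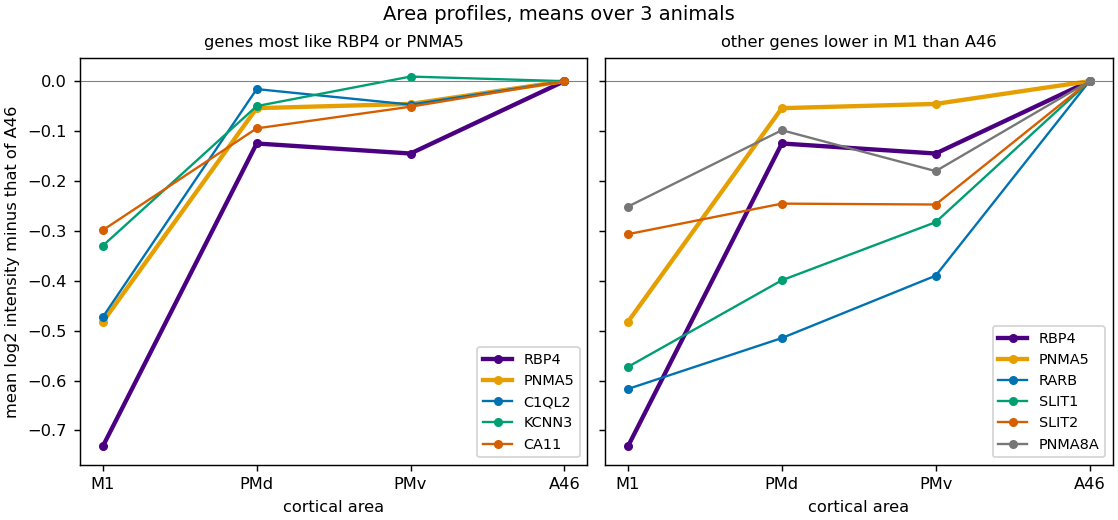
Mean log2 intensity minus that of A46, by area from M1 to A46 (means over 3 animals), for RBP4 (first set) and PNMA5 in both panels, with C1QL2, KCNN3 and CA11 on the left and RARB, SLIT1, SLIT2 and PNMA8A on the right. On the left the premotor values sit close to A46, as for PNMA5 (PMd -0.05, PMv -0.05); on the right those of RARB and SLIT1 sit between M1 and A46.

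Most other genes of retinoid transport and signalling had no called difference between M1 and A46. Of 31 named on the array besides RBP4, 18 passed the intensity filter, 1 was called higher in M1 and 1 lower, beside 8.77% of all genes called higher and 5.89% called lower. The median difference was -0.06, against 0.00 over all 10043 genes. RARB, a nuclear retinoic acid receptor, was lower in M1 (-0.62, SE 0.09, adjusted p = 0.000714), and its second probe set passed too (-0.38, adjusted p = 0.00892), though not without animal 1 (0.0816) or animal 2 (0.0786). FABP5, a fatty acid-binding protein that can carry retinoic acid, was higher in M1 (0.48, SE 0.08, adjusted p = 0.0013), though not without animal 2 (adjusted p = 0.0878). STRA6, the receptor of the RBP4 protein, had a difference of 0.05 (adjusted p = 0.783). The receptors RARA (0.13, adjusted p = 0.217) and RARG (-0.07, 0.647), whose probe sets differed in sign, and RXRB (-0.06, 0.625), the retinoic acid-binding proteins CRABP1 (-0.14, 0.611) and CRABP2 (-0.04, 0.867) and the synthetic enzyme ALDH1A2 (-0.31, 0.191) did not pass. Some of these lay near the filter of 5.62, with mean log2 values over areas of 5.68 to 5.80 for STRA6, 5.57 to 5.75 for CRABP1 and 5.65 to 5.96 for ALDH1A2. At such dim signal a small difference does not show that a gene is level. RXRA and the retinoic acid hydroxylases CYP26A1 and CYP26B1 were below the filter, and TTR was not analysed here.

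The mean log2 intensity of RARB was 7.56 in M1, 7.66 in PMd, 7.79 in PMv and 8.18 in A46. The second RBP4 set and PNMA5 had the same order of means, but the step between PMd and PMv is not resolved (limma adjusted p = 0.855 for RARB). RARB was lower than in A46 in PMd too (-0.51, adjusted p = 0.0135), and PMv minus A46 did not pass (-0.39, adjusted p = 0.0587). The difference between the profiles of RARB and RBP4 was not tested.

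Relatives of PNMA5 were too few to set apart from all genes, of which 5.89% were called lower in M1 than in A46. Of 5 measured members, 1 was called, PNMA8A, which was lower in M1 (-0.25, SE 0.07, adjusted p = 0.0353), and the median was -0.07. An unadjusted limma p under 0.05 was found for 2 of the 5, against 28.4% of all genes. PNMA8A missed the threshold without animal 1 (adjusted p = 0.203) and without animal 2 (0.445). It also missed it on left arrays alone (limma adjusted p = 0.198), with arrays centred on the median (0.143) and without the block for animal (0.174). Without the intensity filter (0.0507) or the intensity trend of the fit (0.056) it was just past the threshold and not called. PNMA8B (-0.18, adjusted p = 0.0713), PNMA1 (-0.07, 0.601), PNMA2 (0.03, 0.872) and CCDC8 (0.01, 0.982), which shares the PNMA domain, did not pass.

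The SLIT genes encode secreted ligands of the ROBO receptors of axon guidance and have been described, with RBP4 and PNMA5, as enriched in primate association cortex. Of 3 tested, SLIT1 (-0.57, SE 0.11, adjusted p = 0.00492) and SLIT2 (-0.31, SE 0.09, adjusted p = 0.0401) were lower in M1 than in A46, beside 5.89% of all genes. SLIT3 was not called (-0.03, adjusted p = 0.821). The calls were lost without animal 2 (adjusted p = 0.23 for SLIT1 and 0.37 for SLIT2), and that of SLIT2 also without animal 1 (0.344). Both were also lost on left arrays alone (limma adjusted p = 0.0552 and 0.153) and without the block for animal (0.131 and 0.144). Of the 2 calls 1 was lost with arrays centred on the median (0.117) and 1 without the intensity filter (0.0523). SLIT1 had mean log2 values of 6.19 in M1, 6.37 in PMd, 6.48 in PMv and 6.77 in A46.

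Genes described as enriched in primary visual cortex, another primary area, were represented by the brightest probe set of each. By limma 0 of these 5 passed in M1 minus A46 (FSTL1, SPOCK1, SPOCK2, HTR1B and HTR2A), also at an unadjusted p under 0.05, with a median of -0.02. HTR2A passed without animal 3 (-0.37, adjusted p = 0.0134). The probe sets of FSTL1, a secreted follistatin-related protein, disagreed. The brightest did not pass (0.11, adjusted p = 0.472), but the other 2 were called higher in M1 (0.53, adjusted p = 0.000209, and 0.43, adjusted p = 0.00221). Without animal 2 their adjusted p was 0.0478 and 0.126. Genes of DNA methylation and methyl-CpG binding were measured because methylation is one way in which genes are kept silent. Of 7 tested, 0 passed in limma and 2 had an unadjusted p under 0.05, as had 28.4% of all 10043 genes, with a median of -0.05. The methyl-CpG-binding protein MBD4 had a difference of -0.16 (adjusted p = 0.285).

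Marker genes of cell types were compared between the same areas. For comparison with each list, 8.77% of all genes were called higher in M1 than in A46 and 5.89% lower. Of 6 oligodendrocyte genes 5 were called higher in M1 than in A46 (MBP, SOX10, UGT8, ENPP2 and PLLP, but not CNP), with a median difference of 1.27. Their summed intensity was 18443 to 25214 in M1, 13117 to 17506 in PMd, 13746 to 18480 in PMv and 9607 to 13114 in A46. The M1 and A46 arrays did not overlap, so this sum ran opposite to RBP4 and PNMA5. Its part in their differences was not tested.

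Neuronal markers had smaller list medians in M1 minus A46, at -0.05 for pan-neuronal, -0.16 for excitatory and -0.09 for inhibitory genes. All 5 excitatory genes had an unadjusted limma p under 0.05, against 28.4% of all genes. Of 7 pan-neuronal genes 1 was called, STMN2, higher in M1 (0.25, adjusted p = 0.0135, and 0.148 without animal 1 or 0.255 without animal 2). Their summed intensity was 19043 to 20329 in M1, 19003 to 21633 in PMd, 16675 to 20964 in PMv and 18952 to 20928 in A46. Of 5 excitatory neuron genes CAMK2A (-0.53, adjusted p = 0.023) and NEUROD6 (-0.31, adjusted p = 0.028) were lower in M1 and TBR1 was higher (0.20, adjusted p = 0.0391), with summed intensities of 11743 to 12767 in M1, 11991 to 13468 in PMd, 10819 to 12979 in PMv and 12523 to 13919 in A46. All 3 calls were lost without animal 1 (adjusted p = 0.0975 to 0.17) and without animal 2 (0.285 to 0.628). Of 4 inhibitory neuron genes GAD2 was higher (0.78, adjusted p = 0.00133) and DLX1 lower (-0.25, adjusted p = 0.029). Both were lost without animal 2 (adjusted p = 0.0686 and 0.366), and DLX1 also without animal 1 (0.164). STMN2, TBR1, GAD2 and DLX1 each had a second probe set of the same sign that did not pass (adjusted p = 0.0998, 0.138, 0.0533 and 0.651 in that order).

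RBP4 is also made by cells of the choroid plexus and meninges, tissues that can adhere to a dissected piece. Of 5 choroid plexus genes AQP1, a water channel that other cells also make, was higher in M1 (0.65, adjusted p = 0.000835), CLIC6 was lower (-0.26, adjusted p = 0.049), and the more restricted FOLR1 (-0.02, adjusted p = 0.902) and KCNJ13 (0.00, adjusted p = 0.999) did not pass. The summed intensity was 378 to 427 in M1, 382 to 434 in PMd, 393 to 456 in PMv and 353 to 425 in A46. AQP1 was lost without animal 2 (adjusted p = 0.0754), and CLIC6 without any 1 of the 3 animals (0.0879 to 0.48) and without the 2 PMv left arrays (0.108). Of 10 meningeal genes 1 was called, SLC47A1, higher in M1 (0.29, adjusted p = 0.0359, and 0.195 without animal 1 or 0.201 without animal 2). All the others had negative differences that did not pass, such as COL1A2 (-0.55, adjusted p = 0.134) and LUM (-0.42, 0.119). The list median was -0.22, the direction of RBP4. An unadjusted limma p under 0.05 was found for 6 of the 10 meningeal genes, against 28.4% of all genes. Their summed intensity was 1575 to 1836 in M1, 1619 to 1943 in PMd, 1155 to 2379 in PMv and 1571 to 2624 in A46, so M1 and A46 overlapped for both tissues. The part of these cells in the RBP4 differences was not tested.

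The remaining cell types had short lists, whose counts stand beside 8.77% of all genes called higher in M1 than in A46 and 5.89% lower. Of 8 astrocyte genes 2 were higher in M1, of 10 microglial genes 2 were higher and 1 lower, of 6 endothelial and pericyte genes 1 was higher, and of 2 blood genes 0 passed, also at an unadjusted p under 0.05. The list medians were 0.12, 0.04, 0.02 and -0.06 in that order. Without animal 2 none of these calls was left, and without animal 1 only the 2 astrocyte calls were.

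**Figure D4:**
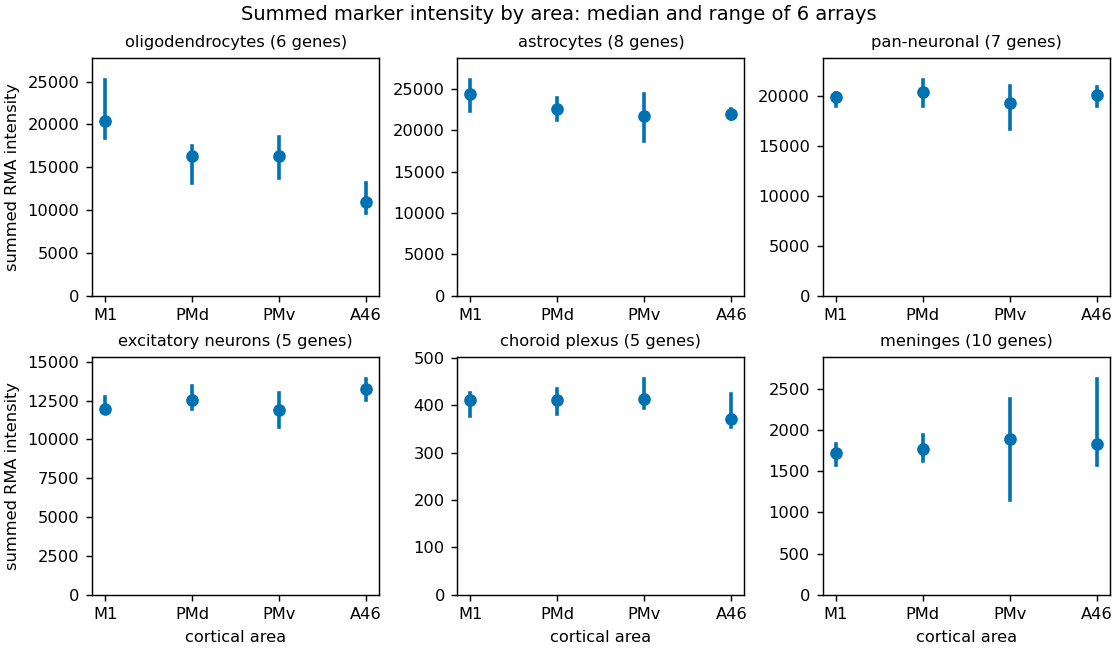
Summed RMA intensity of the tested marker genes of 6 cell types by area, from M1 to A46, as the median (point) and range (line) of 6 arrays. Oligodendrocyte markers reach 18443 to 25214 in M1 against 9607 to 13114 in A46 with no overlap, while pan-neuronal, choroid plexus and meningeal sums overlap between these areas.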

How the data were processed

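Biotin-labelled total RNA of 24 cortical pieces was hybridised, each piece to its own one-colour array, per the labels' protocols. The deposited intensities are linear and were summarised by the authors with RMA, per the submitters' processing notes. Which arrays were normalised jointly is not given in the sources used here. RMA brings the arrays it normalises together close to a common distribution, so a change of all transcripts together cannot be seen. The deposited values still differed between arrays in median (47.9 to 51.7) and log2 SD (1.79 to 1.95). Arrays have no read depth, and 3 animals limit the precision.

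Of 52865 probe sets 99 controls were removed, and 26383 with a mean log2 value of at least the median (5.62) were tested. Hemispheres were averaged to 12 animal-by-area means. These were fitted in limma 3.58.1 (R 4.3.3; lmFit and eBayes with an intensity trend) on area and animal, with Benjamini-Hochberg adjustment within a contrast. Left minus right used the 24 arrays with animal-by-area pairs as blocks, so its p-values rest on more units than animals. Animal is a block because the titles give the same 3 animals in every area, and deviations from area means correlated at 0.207 to 0.85 within an animal (18 pairs). Of several probe sets for a listed gene, the one with the highest mean was used. Permutation tests shuffled areas within animals. Tests of a difference were two-sided, and those for any area difference have no direction.

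The named genes are the members, the 8 most alike and 4 most opposed genes of each by correlation, and the listed genes past the threshold or needed to show what was measured. The members and the gene lists were chosen with earlier results of these data known. The fit was tested on simulated data. Without a stated genome build, coordinates were left out, and no sequences were used here. Chromosomes are those of RefSeq.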

Additional observations from a re-analysis of the deposited data

How the results depend on the processing

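Of the alternative values of RBP4 and PNMA5, 419 kept their direction and their side of the threshold, 26 lost a call, 14 gained one and 10 changed sign. Every sign change was in PMd minus PMv or PMd minus A46, and none of these values was called. Unless a p is named, values are log2 differences, and the cause of the changes was not tested.

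Leaving out 1 animal in turn gave the widest range. For the first RBP4 set the adjusted p for any area difference ran from 0.00039 to 0.102, M1 minus PMd from -0.72 to -0.51, M1 minus PMv from -0.69 to -0.47, PMd minus PMv from -0.0113 to 0.0384, and premotor minus midpoint from 0.19 to 0.29. For the second RBP4 set the adjusted p for any area difference ran from 6.8e-05 to 0.127, PMd minus A46 from -0.42 to -0.29, PMv minus A46 from -0.45 to -0.13, M1 minus PMd from -0.59 to -0.45, M1 minus PMv from -0.76 to -0.45, PMd minus PMv from -0.25 to 0.11, and M1 minus the other areas from -0.75 to -0.64. For PNMA5 the adjusted p for any area difference ran from 0.00576 to 0.601, M1 minus A46 from -0.59 to -0.39, PMd minus A46 from -0.13 to 0.0108, M1 minus PMd from -0.47 to -0.35, M1 minus PMv from -0.55 to -0.37, PMd minus PMv from -0.0811 to 0.0754, and M1 minus the other areas from -0.54 to -0.37. All calls lost in this way were lost without animal 2 (for M1 minus PMv of the second RBP4 set, also without animal 1), and calls were gained only without animal 3. Over all probe sets 403 were called in M1 minus A46 without animal 2, 5410 without animal 3 and 3391 with all 3 animals.

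Without the replicate block for animal, M1 minus PMd (-0.61, adjusted p = 0.281) and M1 minus PMv (-0.59, 0.0645) lost their calls for the first RBP4 set, as did M1 minus PMv (-0.64, 0.137) for the second. PNMA5 lost M1 minus A46 (-0.48, 0.0881), M1 minus PMv (-0.44, 0.389), M1 minus the other areas (-0.45, 0.0848) and any area difference (adjusted p = 0.31). The block changed no other call of the 3 probe sets. Over all probe sets 1056 were called in M1 minus A46 without it.

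On left arrays alone the first RBP4 set had M1 minus PMd of -0.69 and M1 minus PMv of -0.62, and the second M1 minus PMv of -0.50, none called. PNMA5 then had M1 minus PMv of -0.41 and an adjusted p for any area difference of 0.0951. Centring arrays on the median cost the calls of M1 minus PMd for the first RBP4 set (-0.60) and of M1 minus PMv for the second (-0.61) and for PNMA5 (-0.41). M1 minus PMd was called for the second RBP4 set with 24 arrays and duplicateCorrelation (-0.54), quantile normalization (-0.54) and the mean of both RBP4 sets (-0.57). For PNMA5 it was called with duplicateCorrelation (-0.43), quantile normalization (-0.43) and right arrays alone (-0.46). Without the 2 PMv left arrays, a choice made after the data were seen, M1 minus PMd was called for the second RBP4 set (-0.54) and PNMA5 (-0.43), and PMd minus A46 for the second RBP4 set (-0.35). PMd minus PMv changed sign for the first RBP4 set on right arrays (-0.0306), with quantile normalization (-0.0393), with the mean of both sets (-0.0403) and without the 2 PMv left arrays (-0.01), for the second on left arrays (0.11) and for PNMA5 with centred arrays (0.004).

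Counts over all probe sets moved more than 1.5 times in most comparisons, between 129 and 7754 for any area difference (1723 as reported), 0 and 433 for M1 minus PMd (87), 4 and 3814 for M1 minus PMv (494), 8 and 3055 for PMd minus A46 (515), 1 and 7010 for PMv minus A46 (324), 0 and 1398 for PMd minus PMv (2), 164 and 2692 for M1 minus the other areas (1666), and 0 and 2003 for premotor minus midpoint (8). Left minus right had 38 calls with per-animal means, against 0 in limma on the 24 arrays. The background percentages beside the members move with them. The tests with the second RBP4 set against PNMA5, and of the RBP4 sets against each other, were also added after the data were seen. The 3 animals limit the precision of every value.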
